A study of Mus musculus with 2 samples.

Results

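The cells described here are droplets of a single-cell RNA sequencing library from mouse spinal cord in which transcripts of astrocytes and of endothelial cells were read under the same cell barcode. They were selected on measured values: a droplet was a member if it held a unique molecular identifier (UMI, a tag that marks 1 captured RNA molecule) of 4 or more of 7 astrocyte markers (Aqp4, Gfap, Aldh1l1, Slc1a2, Slc1a3, Gja1, Agt), of 5 or more of 8 endothelial markers (Cldn5, Flt1, Pecam1, Ly6c1, Slco1a4, Itm2a, Cdh5, Ly6a) and of at most 2 of 10 ependymal markers (Ccdc153, Fam183b, Tmem212, Foxj1, Rsph1, Dynlrb2, Pifo, Tmem107, Mia, Fam216b). In the CD133+ non-traced library 50 of 25411 cells met this rule (0.197%, exact 95% interval 0.146 to 0.259), out of 30236 cells in the series. In the CD133+ DNGR-1 traced library 0 of 4825 cells met it, which allows a share of up to 0.0622%.

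Astrocytes are the glial cells that take up glutamate and potassium around synapses, store glycogen and supply lipids and metabolites to neurons. They also wrap blood vessels: their endfeet cover most of the outer face of central nervous system capillaries, where the water channel Aqp4 is concentrated. The endothelial cells underneath form the blood-brain and blood-spinal cord barriers through tight junctions (Cldn5) and selective transporters (Slco1a4, Slc2a1, Abcb1a), and both cell types rest on a shared basement membrane. Ependymal cells, the ciliated cells around the central canal that the sort was made for, are another type, with CD133 on the apical surface.

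All mice were adult (10 to 12 weeks) C57BL/6j animals of the genotype Clec9a cre/cre R26 LSLtdTomato/LSLtdTomato, so that every cell of either library carried Cre on each Clec9a allele (Clec9a encodes DNGR-1, a receptor of dendritic cells) and a Cre-activated tdTomato reporter on each R26 allele. Spinal cords were dissociated and depleted of myelin, and live CD45-negative CD133-positive cells were sorted as tdTomato-positive (DNGR-1 traced) or tdTomato-negative (non-traced). The study asked whether ependymal cells traced by DNGR-1 are distinct from those that are not, and no step of the sort selected astrocytes. CD133 is encoded by Prom1, and the non-traced fraction is defined by lacking reporter protein, so an unrecombined cell that once made DNGR-1 would also be in it. The number and sex of the animals behind a library were not given in the sources used here.

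Each group was 1 library, with 233318692 UMIs in the non-traced and 46530507 UMIs in the traced table and medians of 7218 and 8566 UMIs per cell. Values given here are therefore descriptions of these libraries with no test and no replicate check, and all intervals are exact 95% intervals (Poisson for summed UMIs, Clopper-Pearson for shares) that cover counting error only. The limits given for a count of 0, as a share or CPM that it allows, are those of 3 counts. They are not exact intervals, whose upper ends are somewhat higher. The libraries shared 42 cell barcodes, and 0 of them belonged to a member. Levels are UMIs summed over a group of cells and scaled to CPM (counts scaled to the same total of 1000000 in each group), and differences are on the log2(CPM + 1) scale, which understates the difference of a gene that is near 0 in either group.

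The 50 members were set beside groups of non-traced cells defined with the same markers. The endothelial reference held 22784 cells with 5 or more endothelial, at most 1 astrocyte and at most 2 ependymal markers. Cells with 4 or more astrocyte markers and at most 1 endothelial and 2 ependymal markers numbered 8, fewer than the 50 set as the minimum for a comparison. A group of 36 cells with 4 or more astrocyte and at most 4 endothelial markers, chosen after the data had been seen, was used in their place and is called the astrocyte-marked cells. All 3 groups are set by the rule markers, so these markers are described and not compared.

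Astrocyte markers were found in the non-traced library both with and without endothelial ones. Of the 86 non-traced cells with 4 or more astrocyte and at most 2 ependymal markers, 8 had 0 or 1 endothelial marker (9.30%, interval 4.10 to 17.5), 28 had 2 to 4 (32.6%, interval 22.8 to 43.5) and 50 had 7 or 8 (58.1%, interval 47.0 to 68.7). No such cell had 5 or 6 endothelial markers, which allows a share of up to 3.49%, and 47 of the 50 members carried all 8. Cells with no astrocyte marker were also few at 5 and 6 endothelial markers (38 and 159, against 1449 at 7 and 14324 at 8). The gap along the endothelial axis is thus a description only. With markers counted after thinning each cell to 1000 UMIs, 21.1% of the cells with 4 or more astrocyte markers had 5 or more endothelial markers (interval 9.55 to 37.3), in place of 58.1%. Along the astrocyte axis there was no such gap. Of the 23231 non-traced cells with 5 or more endothelial and at most 2 ependymal markers, 15970 had no astrocyte marker (68.7%), 6814 had 1 (29.3%), 373 had 2 (1.61%) and 24 had 3 (0.103%). From 4 markers on the counts no longer fell in this way, as the members numbered 10 droplets at 4 markers, 14 at 5, 13 at 6 and 13 at 7. In the endothelial reference Gja1 was found in 26.9% of cells, Slc1a3 in 1.39% and each of the other astrocyte markers in under 1%.

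**Figure D1:**
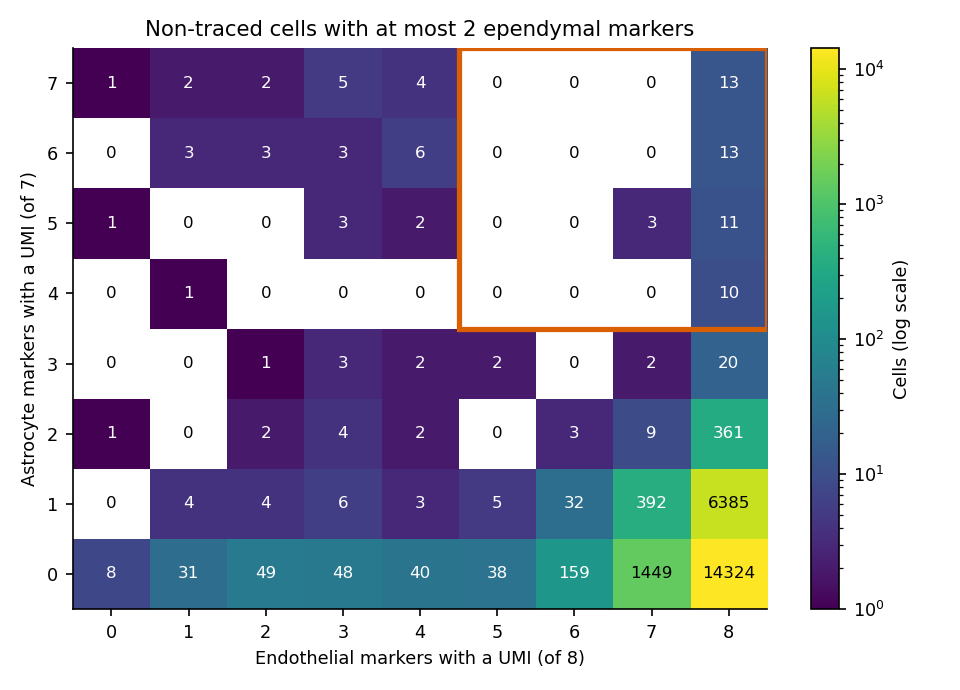
Number of CD133+ non-traced cells by astrocyte markers (vertical axis, of 7) and endothelial markers (horizontal axis, of 8) with at least 1 UMI, among cells with at most 2 ependymal markers; colour is the number of cells on a log scale, white marks 0, and the orange frame holds the members. The 50 members sit at 7 or 8 endothelial markers, 8 astrocyte-bearing cells have 0 or 1, and 14324 cells have all 8 endothelial markers and no astrocyte marker.

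Just inside the astrocyte threshold, the 10 members with 4 markers held 7, 16 and 58 UMIs of the astrocyte rule genes (lowest, median and highest). Just outside it, the 24 droplets with 3 markers held 3, 5 and 12. At the endothelial threshold the 3 members with 7 markers held 90, 108 and 193 UMIs of the endothelial rule genes, and the 12 astrocyte-bearing cells with 4 markers held 4, 5 and 10. At the ependymal threshold 1 member had 2 ependymal markers, 10 had 1 and 39 had none. No cell met the rule but for exactly 3 ependymal markers, while 69 cells with 3 or more ependymal markers carried the astrocyte and endothelial sets as well. In the traced library 433 of 4825 cells had 4 or more astrocyte markers (8.97%, interval 8.18 to 9.82), and all 433 of these had 3 or more ependymal markers. The astrocyte set includes genes that ependymal cells also transcribe: in the ependymal reference (300 non-traced cells with 5 or more ependymal and at most 1 endothelial marker) Gja1 was at 321 CPM, Slc1a3 at 240.2 CPM and Aqp4 at 129.5 CPM.

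The astrocyte rule genes cover water, glutamate and junctional functions of these cells, and their levels in the members are given as a description, since the rule chose on them. Aqp4, the endfoot water channel (ENSMUSG00000024411.10, GRCm38 chromosome 18, positions 15389496 to 15410982), was found in 50 of 50 members with 1, 8 and 53 UMIs per droplet (lowest, median and highest), and its summed level was 825 CPM (interval 759 to 895) against 0.375 CPM in the endothelial reference and 2980.4 CPM in the astrocyte-marked cells. Slc1a2, the main astrocyte glutamate transporter GLT-1 (ENSMUSG00000005089.15, GRCm38 chromosome 2, positions 102658659 to 102790784), was also found in 50 members, with 2, 18 and 101 UMIs and a summed level of 2037 CPM (interval 1933 to 2145). Every member thus held both transcripts, while the other markers varied among members. Gja1, the gap junction protein connexin 43, was found in 48 members at 830.4 CPM, Agt, the precursor of angiotensin, in 46 at 518 CPM, and Slc1a3, the glutamate transporter GLAST, in 34 at 177 CPM. Gfap, the astrocyte intermediate filament (ENSMUSG00000020932.14, GRCm38 chromosome 11, positions 102887336 to 102900912), was found in 29 members at 115 CPM and Aldh1l1, a folate enzyme, in 22 at 52.5 CPM. For all 7 genes the members were at 27.7 to 39.5% of the level in the astrocyte-marked cells.

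A UMI of a marker can come from free RNA, and a deep droplet has more chances to hold one. With each cell thinned at random to 1000 UMIs, Slc1a2 was found in 35 of 50 members (70%, interval 55.4 to 82.1; 100% unthinned), in 0.114% of the endothelial reference (0.707% unthinned) and in 97.2% of the astrocyte-marked cells. Aqp4 was found in 22 of 50 thinned members (44%, interval 30.0 to 58.7), in 0.0702% of the endothelial reference and in 88.9% of the astrocyte-marked cells. Since the rule chose on these genes, the thinned shares are a description at equal depth and not a comparison. Gja1 was the astrocyte marker read most often in the endothelial reference, in 4.16% of thinned cells against 54% of thinned members. Its unthinned level in the reference was 45.9 CPM, with up to 12 UMIs in 1 cell, against 0.876 CPM for Slc1a2. Whether these Gja1 reads came from free RNA or from the endothelial cells themselves was not tested. With all markers counted after this thinning 8 droplets met the rule (0.0315% of the library).

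The members were deep. They held 3831, 12779 and 35831 UMIs (lowest, median with interval 10885 to 14832, and highest) and a median of 4348 detected genes. The endothelial reference had a median of 7081 UMIs (interval 7023 to 7147) and 2784 genes, and the astrocyte-marked cells 6770.5 UMIs (interval 6223 to 7201) and 2649 genes. The median of the members was 1.80 times that of the endothelial reference, and 46 of 50 members were above the reference median. The ranges overlapped, since the deepest endothelial reference cell had 53195 UMIs. A rule that asks for many detected markers favours deep droplets, and the part of this selection in the depth difference was not tested. In means, the members held 14089.9 UMIs per droplet, the endothelial reference 9014 and the astrocyte-marked cells 7242, so that the mean of the members was 86.7% of the sum of the other two (16256). The non-traced cells with 5 or more ependymal and 5 or more endothelial markers (824 cells) were at a like depth, with a median of 13466.5 UMIs.

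**Figure D2:**
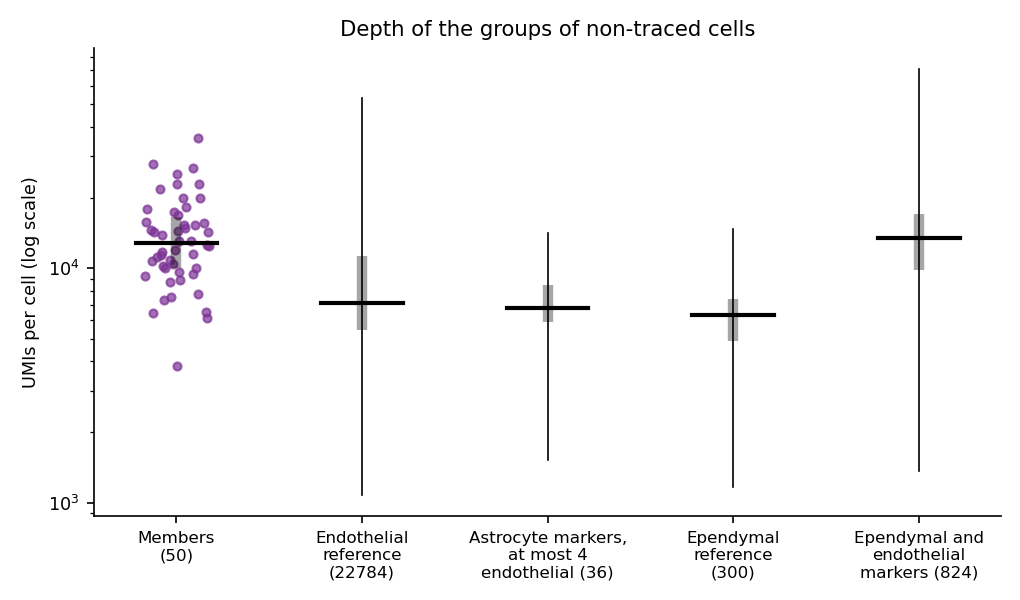
UMIs per cell (log axis) in the groups of non-traced cells; dots are the 50 members, thick grey bars the quartiles, horizontal lines the medians and thin lines the range of the other groups. The members have a median of 12779 UMIs against 7081 in the endothelial reference, 6770.5 in the astrocyte-marked cells, 6328 in the ependymal reference and 13466.5 in cells with ependymal and endothelial markers.

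The wider astrocyte programme, outside the rule genes, was present in the members. In all, 9540 genes were at 10 CPM or more in the members or the endothelial reference, without the 25 rule genes, and of these 1336 (14.0%) were higher in the members by 1 or more on the log2 scale and 272 (2.85%) lower. Of 48 further astrocyte genes, 45 passed this level, and 41 of the 45 were higher and 0 lower, with a median difference of 6.03 against -0.04 over all 9540 genes. A gene near 0 in the reference passes only through the members, so these counts are a description of the passing genes. The members held 45, 369 and 1212 UMIs of the 48 genes (lowest, median and highest), against a median of 21 in the endothelial reference and 578 in the astrocyte-marked cells. As a share of all UMIs this was 3.22% in the members, 0.293% in the endothelial reference and 8.85% in the astrocyte-marked cells.

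Transport of transmitters and ions, a defining task of astrocytes, was represented by nearly all listed genes. Slc6a11 (GAT3, a GABA transporter) held 0, 8 and 27 UMIs per member and was at 625 CPM (interval 568 to 686) against 0.331 CPM in the endothelial reference, a log2 difference of 8.88. Slc7a10 (Asc-1, a transporter of serine and other small neutral amino acids) was found in 44 of 50 members and differed by 9.02. Both transcripts were nearly missing from endothelial droplets, at under 1 CPM each. Glul, glutamine synthetase, was the exception: endothelial cells transcribe it too, and it was at 959.6 CPM in the members and 782 CPM in the endothelial reference (log2 difference 0.30). Grm3, a metabotropic glutamate receptor, had 5 UMIs in 5 members and did not reach 10 CPM. The sodium pump subunit Atp1b2 was at 2309 CPM against 34.8 CPM, and the bicarbonate cotransporter Slc4a4 (ENSMUSG00000060961.14, GRCm38 chromosome 5, positions 88886818 to 89239653) at 1290.3 against 1.60 CPM. All 3 listed ion transport genes were higher.

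Of the 13 listed genes of astrocyte metabolism and lipids, 12 reached 10 CPM and all 12 were higher, with a median difference of 5.91. Aldoc, the glycolytic aldolase of astrocytes (ENSMUSG00000017390.15, GRCm38 chromosome 11, positions 78322968 to 78327781), held 0, 28 and 75 UMIs per member and was at 2088 CPM (interval 1983 to 2198) against 1.55 CPM. It showed the largest log2 difference of the genes outside the rule at 50 CPM or more, 9.68. After thinning to 1000 UMIs it was found in 40 of 50 members (80%, interval 66.3 to 90.0), in 0.202% of the endothelial reference and in 36 of 36 astrocyte-marked cells. Apoe, the main lipid carrier of the brain, was at 5689 CPM in the members and already at 1221 CPM in the endothelial reference, a difference of 2.22. The metallothionein Mt3, at 2104 against 15.8 CPM, is also an ependymal transcript and was at 14934 CPM in the ependymal reference. Pla2g7, a secreted phospholipase, the fatty acyl-CoA synthetase Acsbg1 and Dio2, the deiodinase that activates thyroid hormone, differed by 8.76, 8.14 and 4.89. Gldc, of the glycine cleavage system, had 5 UMIs and was below the level tested.

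Secreted and surface proteins of astrocytes followed the same order. Of 13 listed genes 12 were higher, with a median difference of 7.84. Gpr37l1, a receptor of glial cells (ENSMUSG00000026424.8, GRCm38 chromosome 1, positions 135160234 to 135167681), held 0, 12 and 47 UMIs per member and was at 1075 CPM against 0.677 CPM (difference 9.33). Cldn10, a claudin of astrocytes, and the proteoglycan brevican (Bcan) differed by 9.00 and 8.42, and the neurotensin receptor Ntsr2 by 8.72. The growth factor receptor Fgfr3 was found in 46 of 50 members at 358 CPM against 9.32 CPM. Mfge8, a secreted bridge for phagocytosis, was at 115 CPM in the members (interval 91.3 to 143) and 136 CPM in the reference, with no difference of the called size. Among transcription factors, Sox9 was at 210.1 against 26.3 CPM, Sox2 at 131 against 0.862 and Rfx4 at 76.7 against 0.190, and 4 of the 5 that passed were higher. Nfia, which endothelial cells also transcribed, was at 285 against 196 CPM. Hes5, a Notch target, had 6 UMIs in 4 members.

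Genes of the perivascular endfoot are of interest here because that is the part of an astrocyte that touches an endothelial cell. Of 8 listed endfoot genes besides Aqp4 and Gja1, 7 were higher in the members than in the endothelial reference, with a median difference of 6.13. Kcnj10, the potassium channel Kir4.1 (ENSMUSG00000044708.5, GRCm38 chromosome 1, positions 172341210 to 172374085), held 0, 3 and 20 UMIs per member and was at 304 CPM (interval 264 to 347) against 0.613 CPM. Mlc1 and Hepacam, which form a membrane complex at the endfoot, were at 143 and 209 CPM, and Gjb6, connexin 30, at 370.5 CPM. Of the dystrophin complex that anchors Aqp4, Dmd was at 129 against 28.5 CPM and Dtna at 82.3 against 0.458, while Dag1, dystroglycan, was at 150.5 against 98.9 CPM. The endfoot genes stood at a median of 38.9% of their level in the astrocyte-marked cells, and the 46 astrocyte genes with enough UMIs for this ratio at 37.5%. The 46 include the 8 endfoot genes, and the medians of the other 5 astrocyte lists ran from 36.6% (glutamate and GABA handling) to 47.8% (6 transcription factors, from 20.2% for Hes5 to 72.9% for Nfia).

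**Figure D3:**
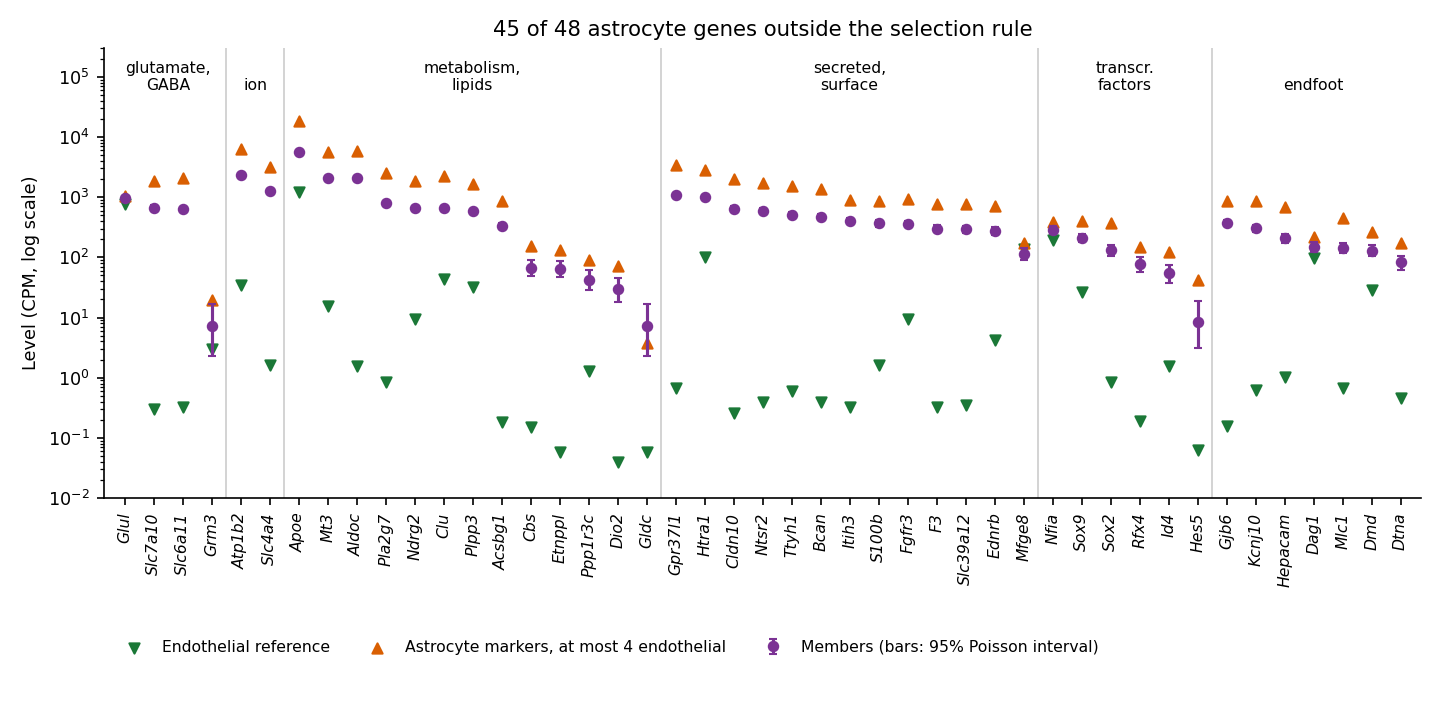
Levels (CPM, log axis) of 45 of the 48 listed astrocyte genes that the rule did not use, grouped by role and ordered by level in the members; purple dots are the members with 95% Poisson intervals, green triangles the endothelial reference and orange triangles the astrocyte-marked cells. For most genes the members lie between the other groups, below the astrocyte-marked cells and far above the endothelial reference, as for Aldoc at 2088, 1.55 and 5961 CPM in members, reference and astrocyte-marked cells. Glul, Mfge8, Nfia and Dag1 lie closer together than the others.

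Factors through which astrocytes act on vessels were also read in the members. Vegfa, the endothelial growth factor, was found in 35 of 50 members with 0, 2 and 11 UMIs per droplet, at 204 CPM (interval 172 to 241) against 2.26 CPM in the endothelial reference and 556 CPM in the astrocyte-marked cells. The barrier-inducing ligands Wnt7a and Wnt7b were at 25.6 and 45.4 CPM, each under 0.1 CPM in the reference. Of the 7 listed signals 4 passed the level and 3 were higher. Tgfb2 was at 148 against 209 CPM, and Ndp, Angpt1 and Fgf2 had 5, 4 and 2 UMIs in all members together. Genes of reactive astrocytes, which rise in injured tissue, were read as well. Of 16 listed genes 9 passed the level, none of them was higher by 1 or more, and Lcn2 and Cxcl10 were lower, with 3 and 1 UMIs. All 9 were at 10 CPM or more in the endothelial reference, so the filter favoured genes that are not higher in the members. Below the level, Serpina3n and Aspg were at 8.52 and 7.10 CPM in the members against 0.0341 and 0.0584 in the reference. C3 and Serping1 had 0 UMIs in the members. The most abundant of this list, Hspb1 and Vim, are also endothelial transcripts and were at 1973 and 1139.8 CPM in the members, 3105 and 1589 in the endothelial reference and 69.0 and 26.9 in the astrocyte-marked cells.

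The endothelial programme was present in every member at a level like that of an endothelial droplet. The members held 89, 261 and 1039 UMIs of 27 endothelial genes outside the rule (lowest, median and highest), against a median of 294 in the endothelial reference. In the astrocyte-marked cells the same genes gave 6, 15.5 and 31 UMIs, so all 50 members lay above the highest of them. The rule sets these groups apart by endothelial markers, so this separation is a description. The mean per droplet was 363 UMIs in the members and 359 in the reference, that is 101% of it. As a share of all UMIs the list was lower in the members, 2.58% against 3.98%, and reference cells of the depth of the members (5037 cells between their quartiles, 10000.2 to 16619 UMIs) held 499 UMIs on average. All 27 genes passed 10 CPM. None was higher and none lower by 1 or more, and the median difference was -0.58, with a range from -0.87 to -0.29.

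By role, the barrier transporters Slc2a1 (GLUT1), Abcb1a (P-glycoprotein) and Abcg2 were at 1022, 907 and 701 CPM in the members and 1514, 1267 and 1040.0 CPM in the endothelial reference. Bsg, basigin, the most abundant of the list, held 19, 114 and 425 UMIs per member, and its mean was 147 UMIs per member against 145 per reference cell. The angiopoietin receptors Tek and Tie1 and the VEGF receptor Kdr were at 223, 204 and 331 CPM against 321, 251 and 497 CPM. The endothelial transcription factors Erg, Sox17 and Sox18 differed by -0.44, -0.80 and -0.61 on the log2 scale, and Lef1 and Foxq1, which mark barrier endothelium, by -0.56 and -0.62. Among the rule markers Cldn5 held 8, 52 and 162 UMIs per member, with a mean of 62.8 against 66.9 in the reference. Levels in CPM were thus lower by a similar amount for nearly all endothelial genes, while UMIs per droplet were close to those of an endothelial cell.

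Markers of the vessel segments were at levels near those of the reference. Of 11 arterial genes that passed the level 0 were higher and 0 lower (median -0.31), of 7 capillary genes 0 and 0 (-0.57) and of 7 venous genes 0 and 0 (-0.52). At least 3 of the 7 capillary markers were found in 50 of 50 members, and in 98.6% of reference cells of like depth. At least 3 of the 12 arterial markers were found in 29 of 50 members (58%, interval 43.2 to 71.8) and in 62.4% of reference cells of like depth (interval 61.1 to 63.8), and 3 or more of the 9 venous markers in 24 members (48%, interval 33.7 to 62.6) and in 54.3% (interval 52.9 to 55.7). The intervals overlapped for each segment. Mfsd2a, the lipid transporter of the barrier, was at 358 CPM in the members, 280.2 in the endothelial reference and 518 in the astrocyte-marked cells, so it did not separate the cell types in this library. Mgp, an arterial gene, was at 386 against 283 CPM with 33.5% of its 272 UMIs in 1 member, and Vcam1 at 204 against 117 CPM with 26.4% of its UMIs in 1 member.

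**Figure D4:**
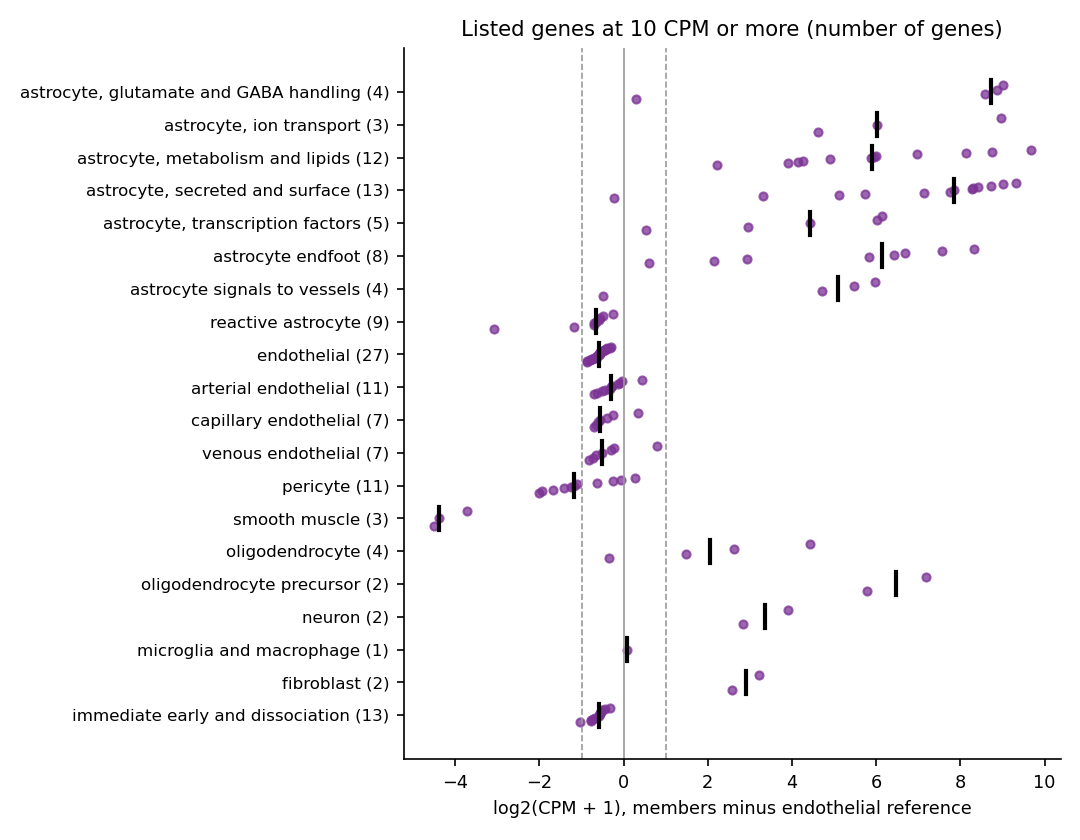
Difference of log2(CPM + 1), members minus endothelial reference, for each listed gene at 10 CPM or more (dots) with the median of the list (black bars); dashed lines mark the called size of 1 and -1, and the number of genes is in brackets. The astrocyte lists lie far to the right, with a median of 6.03 over 45 genes, all 27 endothelial genes lie between -0.87 and -0.29, and the pericyte and smooth muscle lists lie to the left.

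The members varied more in their astrocyte than in their endothelial part. Astrocyte list UMIs spanned 45 to 1212 and endothelial list UMIs 89 to 1039. In 28 of 50 members the astrocyte lists gave more UMIs than the endothelial list, against 36 of 36 astrocyte-marked cells and 21 of 22784 endothelial reference cells. Of the 50 members 35 had a larger share of astrocyte list UMIs than the highest endothelial reference cell (2.29%), and 32 had more such UMIs than the highest (264). The groups were set apart by the rule markers, so these counts too are a description. At the other end, 6 members held fewer astrocyte list UMIs than the lowest astrocyte-marked cell (110). The median number of these UMIs was 115 in members with 4 astrocyte rule markers, 429 with 5, 485 with 6 and 652 with 7. The members with 4 markers had the lowest median, but their range (45 to 372) overlapped that of the other members, while their endothelial list median (408.5) was the highest of the 4 sets. Across the 50 droplets, total UMIs correlated with endothelial list UMIs (r = 0.81, rho = 0.70) more than with astrocyte list UMIs (r = 0.30, rho = 0.32), and the lists correlated weakly and negatively with each other (r = -0.22, rho = -0.22). These points share 1 library and the lists are part of the totals.

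**Figure D5:**
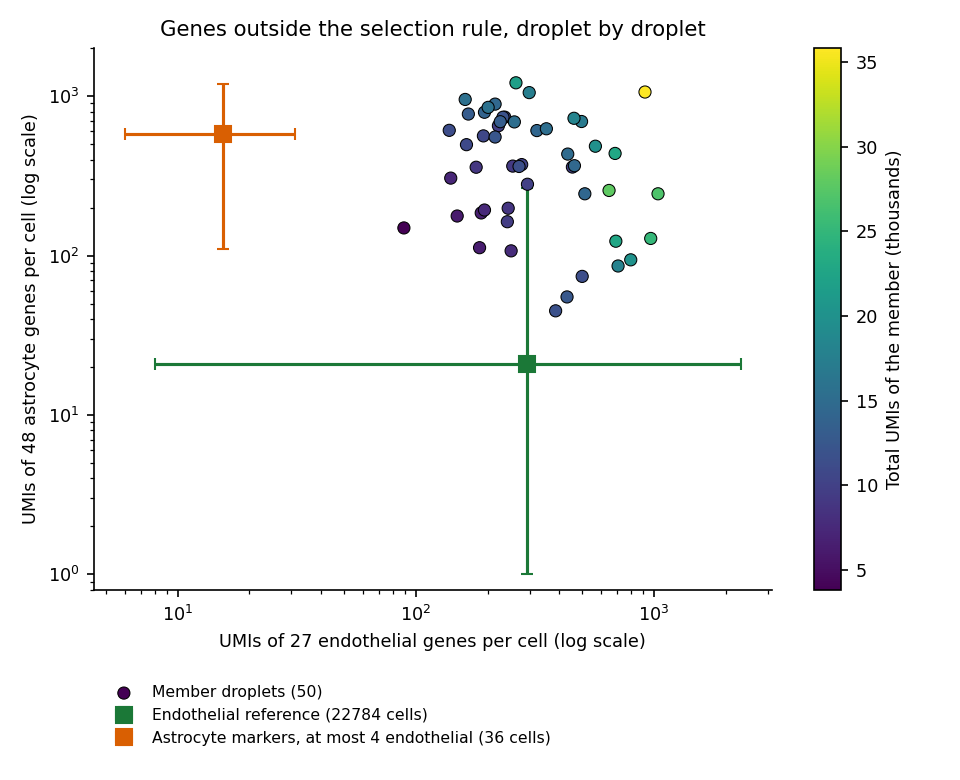
UMIs per cell of 48 astrocyte genes (vertical, log axis) against 27 endothelial genes (horizontal, log axis), all outside the rule; dots are the 50 members coloured by total UMIs, squares the medians of the endothelial reference and the astrocyte-marked cells with bars from lowest to highest cell (the lowest astrocyte value of the reference, 0, is drawn at 1). The members combine endothelial UMIs like the reference (median 261 against 294) with a lower median of astrocyte UMIs than the astrocyte-marked cells (369 against 577.5). Of the members, 6 fall below 110 astrocyte UMIs.

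Over the genes that set the other groups apart, the members lay between them. Of 1714 genes that differed at least 4-fold between the endothelial reference and the astrocyte-marked cells (at 50 CPM or more in either), 1696 (98.9%) had a CPM between the 2 levels in the members. The genes were chosen for a difference between the 2 groups, and the rule markers set both groups. A place between them was thus favoured by the choice. The members were at a median of 34.9% of the way from the endothelial to the astrocyte-marked level (quartiles 27.8 and 42.0). The position was nearly the same for the 791 genes higher in the astrocyte-marked cells (34.9%) and the 923 genes higher in the endothelial reference (35.0%). Of the 1336 genes higher in the members than in the endothelial reference 1314 were also higher in the astrocyte-marked cells than in the reference, and 248 of the 272 lower genes were also lower there. These comparisons share the endothelial reference, so their counts are not independent of each other.

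The 15 genes outside the rule with the largest differences at 50 CPM or more included, after Aldoc, Gpr37l1, Slc7a10 and Cldn10, the genes Slc4a4, Slc6a11, Pla2g7, Ntsr2, Gm3764, Bcan, Gjb6, Ttyh1, Itih3 and Ptprz1, with differences from 9.68 down to 8.24. Of these 15 all but Gm3764, a long noncoding RNA gene, and Ptprz1, a receptor phosphatase of glia, were on the astrocyte lists. Each was found in 40 to 49 of 50 members, and no droplet held more than 11.1% of the UMIs of any of them. They stood at 29.6 to 46.1% of their level in the astrocyte-marked cells.

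By UMIs added per droplet, in place of ratios, the order was set by abundant transcripts. Malat1, a nuclear noncoding RNA, had a mean of 701 UMIs per member, 307 per endothelial reference cell and 613 per astrocyte-marked cell. The mitochondrial ribosomal RNA mt-Rnr2 had 367, 173 and 301, and mt-Cytb, of respiratory complex III, 136, 34.6 and 111. Among the 15 genes of largest added mean were also Cst3 (cystatin C), Apoe, Ckb (brain creatine kinase), Atp1b2, Sparcl1, Mt1 and Mt3. Cst3 held 8, 76 and 274 UMIs per member and Ckb 1, 49 and 168 (lowest, median and highest), and both were found in all 50. The mitochondrial share of UMIs had a median of 5.84% in the members, 3.37% in the endothelial reference and 9.36% in the astrocyte-marked cells, so here too the members lay between. The part of the mitochondrial share in the levels of the other genes was not tested.

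The lower genes were fewer, and the largest differences among them were of globin and smooth muscle genes. The globin genes Hba-a1, Hbb-bs, Hbb-bt and Hba-a2 differed by -6.95, -6.49, -6.12 and -5.45. In the endothelial reference 93.4 to 96.3% of the UMIs of each globin gene lay in 50 cells, so these differences rest on a few reference cells. Hbb-bs, for example, was found in 6 members with 1 UMI each and in 11.3% of reference cells, of which 1 held 6659 UMIs. Acta2 and Tagln, contractile genes of smooth muscle, had 2 UMIs each in all members together and were at 86.6 and 78.9 CPM in the reference. Each was found in 4% of members, and in 4.24 and 4.15% of reference cells. In the reference 42.5 and 46.2% of their UMIs lay in 50 cells. All 3 smooth muscle genes that passed the level were lower, and each passed only through the reference. The rest of the 15 largest lower differences were Cxcl1, Vtn, Myl9, Gm13889, Ndufa4l2, Ifit3, Lrrc8c, Uap1 and Tbc1d1, from -2.41 to -1.44. Among them are a chemokine (Cxcl1), an interferon-induced gene (Ifit3) and pericyte genes (Vtn, Ndufa4l2, Myl9). The number of lower genes depended on the member set, at 94 when 3 astrocyte markers were enough and 440 when 5 were asked for. Of the called genes, 219 of the 272 lower and 1326 of the 1336 higher had Poisson intervals that did not overlap those of the reference. The share over all 9540 genes was not counted, and these intervals leave out the spread between droplets. No conclusion is drawn from these counts.

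Pericytes, the mural cells of capillaries, share the basement membrane with both other types, and their markers were not enriched in the members. Of 11 pericyte genes that passed the level 7 were lower and 0 higher, with a median of -1.18. Vtn, vitronectin, was found in 14 of 50 members (28%) and in 28.8% of reference cells, but at 128 CPM (interval 103 to 157) against 515 CPM, and 61.1% of its UMIs lay in 1 member. The pericyte receptor Pdgfrb was at 45.4 CPM (interval 31.1 to 64.1) against 47.2 CPM. Droplets with 4 or more of 13 pericyte markers numbered 7 among the members (14%, interval 5.82 to 26.7), against 14.4% of the endothelial reference and 22.1% of reference cells of like depth (interval 20.9 to 23.2). The share of members with such a mural signal did not exceed that of the reference, and 2 of them held all 13 pericyte markers.

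Genes of the oligodendrocyte lineage were read in part. Olig1 and Olig2, transcription factors of oligodendrocytes and of some spinal cord astrocytes, were at 163 and 56.8 CPM in the members, 0.136 and 0.0536 in the endothelial reference and 414 and 188 in the astrocyte-marked cells. They were found in 29 and 23 of 50 members. The defining genes of oligodendrocyte precursors Pdgfra, Sox10, C1ql1 and Gpr17 had 0 UMIs in the members, which allows up to 4.26 CPM each. Of the myelin genes, Mbp was at 17.0 against 1.91 CPM, with 72.9 CPM in the astrocyte-marked cells, and Mog had 0 UMIs. Mal was an endothelial transcript here, at 595, 755 and 30.7 CPM. Summed over 9 oligodendrocyte genes the members were at 857 CPM and the endothelial reference at 782 CPM, with 3 of 4 genes that passed the level higher.

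Markers of other cell types were low. The neuronal genes Snap25 and Stmn3 were at 14.2 and 27.0 CPM, against 1.14 and 0.881 CPM in the reference and 23.0 and 42.2 CPM in the astrocyte-marked cells, and 9 neuronal genes summed to 45 UMIs over all members. Of 10 microglia and macrophage genes, 9 had 0 UMIs in the members, among them Cx3cr1, P2ry12 and Ptprc (CD45). Of 5 fibroblast genes Dcn and Lum had 0 UMIs, while Col1a2 was at 48.3 against 7.21 CPM and Col1a1 at 12.8 against 0.482 CPM. Both collagens were higher again in the astrocyte-marked cells, at 111 and 42.2 CPM. Of 13 further ependymal genes measured none reached 10 CPM and their UMIs summed to 6 over the 50 members, against 4219 CPM in the ependymal reference and 8.52 CPM in the members. Cell cycle genes gave 1 UMI in all.

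Immediate early genes, which respond to tissue dissociation, followed the endothelial pattern. All 13 listed genes passed the level, 0 were higher and 1, Egr1, was lower (356 against 737 CPM, difference -1.05), and the median difference was -0.58. Fos was at 2219 CPM in the members, 3531 CPM in the endothelial reference and 84.4 CPM in the astrocyte-marked cells. The mean over the list was 217 UMIs per member, 212 per endothelial reference cell and 5.61 per astrocyte-marked cell.

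The sort marker and the reporter were compared next, since the sort should hold CD133-positive, tdTomato-negative cells. Prom1 (ENSMUSG00000029086.15, GRCm38 chromosome 5, positions 43993620 to 44102032) was found in 40 of 50 members (80%, interval 66.3 to 90.0) with 0, 2 and 12 UMIs per droplet, at 233 CPM (interval 199 to 271) against 326 CPM in the endothelial reference. In the astrocyte-marked cells it had 1 UMI in 36 cells (3.84 CPM, interval 0.0971 to 21.4), and in the ependymal reference it was at 24.6 CPM. Prom1 in the members was thus lower in CPM than in the endothelial reference, with a mean of 3.28 UMIs per droplet against 2.94. In reference cells of like depth the mean was 4.24 UMIs, and Prom1 was found in 94.6% of them (interval 93.9 to 95.2). The reporter row WPRE-tdTomato was at 55.4 CPM in the members (39 UMIs in 20 droplets, interval 39.4 to 75.7), 66.2 CPM in the endothelial reference and 30.7 CPM in the astrocyte-marked cells (8 UMIs, interval 13.2 to 60.5), and the intervals of the members and the reference overlapped. Clec9a had 0 UMIs in the members, which allows up to 4.26 CPM. The paper uses mice of this genotype as Clec9a-deficient animals, so this count cannot show whether these cells would express the gene.

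Cells with Xist only and cells with Y-linked transcripts only were each common in the library, and this gave a further measure. Xist, the RNA of the inactive X chromosome, and at least 1 of the Y-linked genes Ddx3y, Eif2s3y, Uty and Kdm5d were read together in 14 of 50 members (28%, interval 16.2 to 42.5). The share was 8.20% in the endothelial reference (interval 7.85 to 8.57), 15.2% in reference cells of the depth of the members (interval 14.3 to 16.3; median 12440 UMIs), 0 of 36 in the astrocyte-marked cells, which allows up to 8.33%, and 0.667% in the ependymal reference. It was 30.9% in cells with ependymal and endothelial markers (interval 27.8 to 34.2; median 13466.5 UMIs). With 2 or more UMIs of each the shares were 14% in the members (interval 5.82 to 26.7), 3.16% in the endothelial reference, 5.30% in the depth-matched reference (interval 4.70 to 5.96), 0 of 36 and 0 of 300 in the astrocyte-marked and ependymal references, and 15.4% in cells with ependymal and endothelial markers. Of the other members 12 held Xist only, 23 Y-linked transcripts only and 1 neither. The interval of the members lay above the share of the whole endothelial reference and touched that of cells of like depth.

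Scrublet, which scores each droplet by its likeness to sums of randomly paired droplets, called 8 of 50 members doublets (16%, interval 7.17 to 29.1). It called 7.52% of the endothelial reference (interval 7.18 to 7.87), 13.3% of reference cells of like depth (interval 12.4 to 14.3), 0 of 36 astrocyte-marked cells (interval 0 to 9.74) and 45.0% of cells with ependymal and endothelial markers (interval 41.6 to 48.5). The share in the members was close to that of endothelial cells of the same depth. Scrublet draws its pairs from the library, where the endothelial reference was 89.7% of cells and the astrocyte-marked cells 0.142%. Few of its sums thus join these types, so the calls cannot show whether members are such pairs. Whether a member droplet held 1 or more cells, or cell fragments, was not tested, and the depth, the reads of Xist with Y-linked genes and these calls are given as measurements beside the marker counts.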

How the data were processed

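Single-cell RNA was measured with a 10x Genomics 3′ kit in 2 libraries. The authors made the deposited counts with Cell Ranger 3.0.2 and STAR 2.5.1b against mm10 plus reporter sequences; the tables hold only called cells. The deposited values are UMI counts per gene and cell. The study's methods name Seurat and R 3.6.0 for later steps, which were not used here. All cells of the tables were kept, and Scrublet calls (scanpy 1.11.5, expected share 0.8% per 1000 cells, 2170 of 25411 non-traced cells called, 8.54%) served only as an alternative. Cells were grouped by numbers of markers with a UMI, without clustering. Counts were summed per group, scaled to CPM and compared as log2(CPM + 1), with a difference of 1 called. With 1 library per group no test was made. Reads shared by near-identical genes (globins, ribosomal genes) may have been split or dropped, so their values are uncertain.

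The members, lists and groups were chosen with earlier results of these data known. Named genes were the 15 with the largest difference each way at 50 CPM or more, the 15 with the largest added mean UMIs, and listed genes. Some genes of these sets are not reported here, and the counts over the sets include them. Coordinates are from GENCODE M21 (GRCm38). The calculation was tested on simulated counts. Python 3.11.15, numpy 2.4.6 and scipy 1.17.1 were used. Alternatives varied the marker numbers, cells kept, depth, low-value filter, pseudocount, reference and scaling.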

Additional observations from a re-analysis of the deposited data

How the results depend on the processing

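Of 83 recomputed values 67 stayed within 1.5 times, or within the counting interval of a share or median. The share of members was 0.291% when 3 astrocyte markers were enough and 0.0315% when markers were counted after thinning to 1000 UMIs, where 8 droplets met the rule. The share of astrocyte-bearing cells with endothelial markers was 72.1% with 4 endothelial markers as the minimum and 21.1% after thinning. The number of higher genes was 3132 with no minimum CPM and 456 with a minimum of 50 CPM, by construction of the filter, and 1182 to 1561 under the others. The number of lower genes moved most: 94 with 3 or more astrocyte markers, 440 with 5 or more, 434 with no ependymal marker, 427 without Scrublet calls, 421 with trimmed mean scaling, 1027 with no minimum and 64 with a minimum of 50 CPM, and 431 with members of at most 3 pericyte markers, an alternative added after seeing the data. Except for the filter and the scaling the cause was not tested. Trimmed mean scaling shifted all differences by 0.125 on the log2 scale, to a median of -0.16. Endothelial list genes lower in the members were 2 with 4 endothelial markers as the minimum and 1 with no ependymal marker. Astrocyte list genes higher in the members stayed between 38 and 43, and the median depth between 11447.5 and 13496 UMIs. No paired analysis was possible because each group was 1 library, and for the same reason no replicate could be left out. With 50 members a share of them is known only to within the wide intervals given, and a gene with 0 UMIs may be at up to 4.26 CPM.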
